A study of Mus musculus with 6 samples.

Results

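*Ebf1*, *Ebf2*, *Zfp423*, *Zfp521*, *Gata2*, *Gata3*, *Nr2f2*, *Stat5a* and *Stat5b* encode transcription factors that promote or restrain the commitment of precursor cells to the adipocyte fate. The 9 genes were taken by name, without a threshold on their values, from the 24421 gene symbols of the RNA-Seq count tables, and all 9 had enough counts to be among the 12766 genes tested. 3T3-L1 is a mouse fibroblast-like cell line that turns into adipocytes in culture, and its strain is labelled C57BL/6. Confluent cells of both groups received the same cocktail of insulin (870 nM), TZD (5 µM), Dex (1 µM) and IBMX (500 µM), with the last pair of agents withdrawn on day 3 of differentiation. On day 7 they were infected at 100 pfu/cell with an adenovirus encoding LacZ, the control (AdLacZ), or codon-optimized murine *Lmo3* (Ad*Lmo3*), and RNA was taken 72 h later. The design text describes the 3 libraries of each group as separate infections, so that the p-values measure the spread between infections of a single cell line. The comparison asked how the RNA of these factors differed between adipocytes carrying the *Lmo3* virus and adipocytes carrying the control virus.

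EBF1 and EBF2 are helix-loop-helix factors that act with PPARγ on adipocyte genes, and EBF2 is known for brown fat identity. The zinc finger protein ZFP423 prepares precursors for adipogenesis through BMP signalling, whereas its relative ZFP521 restrains EBF1. GATA2 and GATA3 hold preadipocytes back, in part by acting on the *Pparg* promoter, and COUP-TFII, the product of *Nr2f2*, restrains adipogenesis downstream of hedgehog signals. STAT5A and STAT5B are activated in the cytoplasm by JAK2 bound to the receptors for growth hormone and prolactin, move to the nucleus and there bind paired half-sites of the form TTCNNNGAA.

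The sequences of *Stat5a* and *Stat5b* limit how far their counts can be told apart. The coding sequences of this gene pair share an identical run of 324 bp, from coding position 571 to 894 in both, and a 75 bp read from within it matches both genes equally. The first 75 bases of the run are shown, with no base in capitals because all of them are identical (GENCODE vM21 on GRCm38).
*Stat5a* and *Stat5b*: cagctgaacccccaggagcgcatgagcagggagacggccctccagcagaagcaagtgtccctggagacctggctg
Of all stretches of 75 bp in the exons of *Stat5a*, 5.12% also occurred in *Stat5b*, and 6.99% of those of *Stat5b* occurred in *Stat5a*. The coding sequences of *Ebf1* and *Ebf2*, *Zfp423* and *Zfp521*, and *Gata2* and *Gata3* shared 0 such stretches.

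The study's Q-PCR primers for the members are shown because each amplicon reads only some transcripts of a gene whose counts here cover the whole gene.
Ebf1 forward: aggttggattctgctacgaaagtt
Ebf1 reverse: tgattcctcttaaaaaggcctga
Coup-TFII forward: gcatgagacgggaagctgtac
Coup-TFII reverse: cgttggtcagggcaaactg
The *Ebf1* pair matched 3 of the 7 annotated transcripts of the gene with an amplicon of 80 bp, and the Coup-TFII pair matched 1 of the 6 *Nr2f2* transcripts with an amplicon of 78 bp. Neither pair matched another gene.

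The gene counts summed to between 28035639 and 38332335 per library. The smallest level taken as detectable, 3 counts, was 0.0768 to 0.111 CPM (the count scaled by the library's TMM-adjusted total), a limit that covers counting error only. *Lmo3* had 0 counts in all 6 libraries, so that the labels could not be checked through the targeted gene. *Lmo1*, a close relative of *Lmo3*, had 0 counts in each AdLacZ library and 15, 12 and 6 counts in Ad*Lmo3* replicates 1, 2 and 3, and the origin of these reads was not tested. Across all tested genes, 547 were called at an adjusted p under 0.05, with 346 higher and 201 lower in Ad*Lmo3*, and the median log2 fold change was 0.00. Adipocyte markers were abundant in all 6 libraries, whereas B cell, T cell and mast cell markers reached at most 4, 7 and 2 counts, with *Ms4a1*, *Pax5*, *Cd3e*, *Cd3d*, *Kit*, *Tpsb2* and *Fcer1a* at 0.

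None of the 9 commitment factors was called by edgeR's quasi-likelihood test at an adjusted p under 0.05 (0 of 9, against 4.28% of all tested genes), and DESeq2 and limma voom also called 0. At an unadjusted p under 0.05 there was 1 of 9 in each of the 3 tools, *Ebf1*, against 20.6% of all tested genes in edgeR. Estimates were above 0 on the log2 scale for 6 members and below 0 for 3, with a median of 0.06. The 95% interval lay within 0.5 on the log2 scale in either direction for 8 members and was wider for *Gata2*. The groups of libraries overlapped for 8 of the 9 genes, and 1 gene, *Ebf1*, had groups that did not overlap, which 26.5% of all tested genes also showed.

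**Figure D1:**
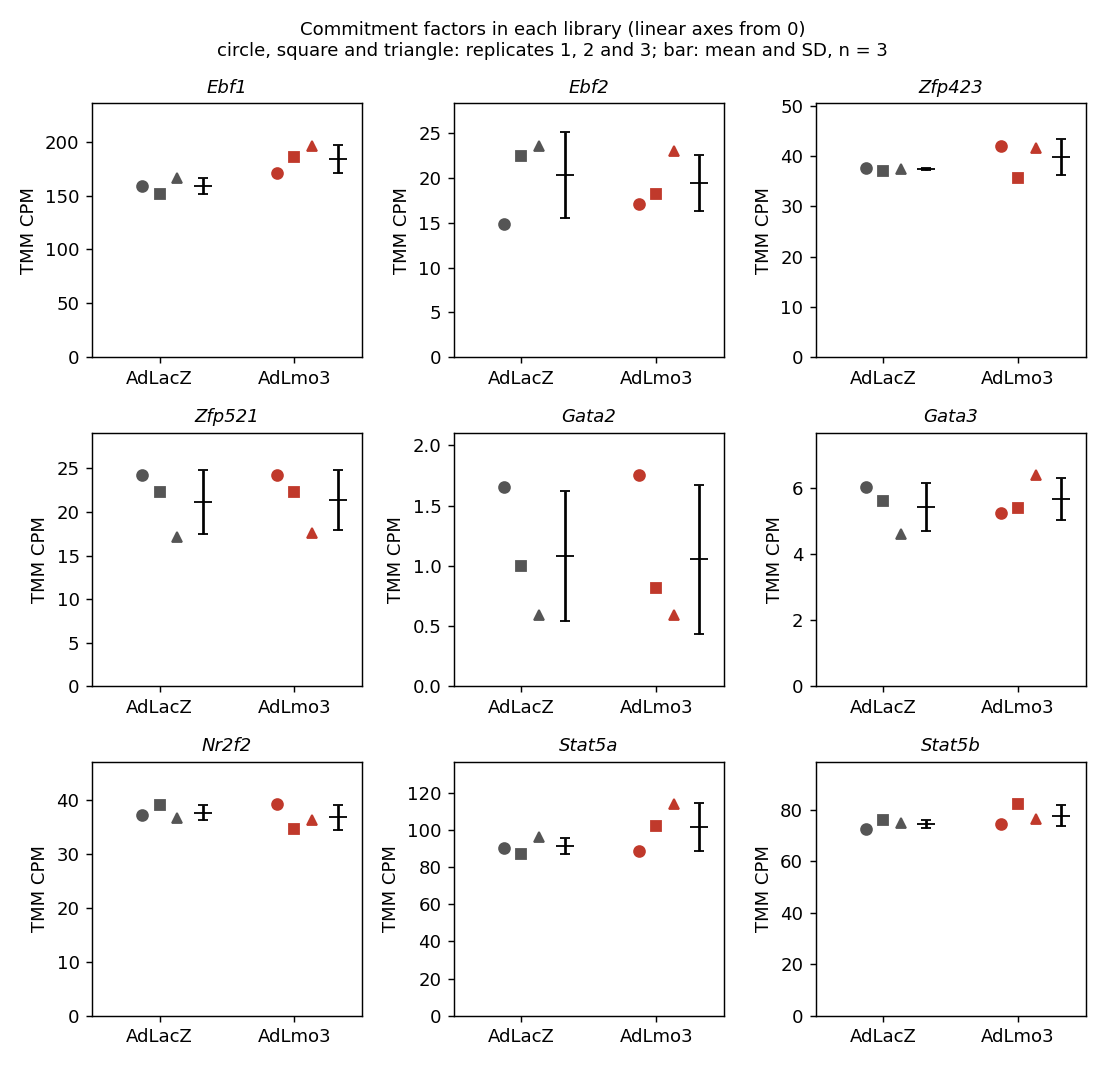
TMM-normalized CPM of the 9 commitment factors in each of the 6 libraries on linear axes from 0, with the mean and SD of each group of 3. Groups overlap in every panel except that of *Ebf1*, where the Ad*Lmo3* libraries (171, 186 and 196 CPM) lie above the AdLacZ libraries (158, 152 and 166 CPM).

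*Ebf1* (chr11:44617317-45008091, plus strand, mm10) encodes the EBF family member that can by itself drive fibroblasts towards the adipocyte fate. Its level was 158, 152 and 166 CPM in AdLacZ replicates 1, 2 and 3, and 171, 186 and 196 CPM in Ad*Lmo3* replicates 1, 2 and 3. The lowest Ad*Lmo3* library thus stood above the highest AdLacZ library, by less than the range within either group. The means were 159 ± 7.13 and 184 ± 12.8 CPM (SD, n = 3 each), a 1.16-fold difference (95% interval 1.03 to 1.31) with a log2 fold change of 0.21 ± 0.0750 (SE). The unadjusted p was 0.0208 in the edgeR fit and the adjusted p 0.156, so that *Ebf1* did not pass over all tested genes.

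*Ebf2* (chr14:67233292-67430918, plus strand) varied more between libraries of a group than between groups. Its level was 14.8, 22.5 and 23.6 CPM in AdLacZ replicates 1, 2 and 3, and 17.1, 18.2 and 23.0 CPM in Ad*Lmo3*. AdLacZ replicate 1 was the lowest of the 6 libraries. On the log2 scale the difference was -0.07, with a 95% interval from -0.49 to 0.36 (adjusted p = 0.882). Of its exonic bases, 6.12% overlap *Gm10860* on the opposite strand, and the strand setting of the counting is unknown. Within a library, where scaling cancels, the ratio of *Ebf1* to *Ebf2* counts was 10.7, 6.76 and 7.04 in AdLacZ and 10.0, 10.2 and 8.55 in Ad*Lmo3*. The ranges overlapped, and an exact two-sided permutation test gave p = 0.4, where 3 against 3 libraries cannot go below 0.1 (adjusted over 4 ratios, 0.8).

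The third family member in the cells, *Ebf3*, was at 35.1 to 40.4 CPM in AdLacZ and 40.1 to 44.2 CPM in Ad*Lmo3* (log2 fold change 0.15, adjusted p = 0.310), and *Ebf4*, at 1 to 9 counts, was too low to be tested. Of 9 brown fat genes associated with EBF2, 6 were tested and 0 passed in edgeR, DESeq2 or limma voom (0 at an unadjusted p under 0.05 in edgeR), with a median log2 fold change of 0.10. *Ppara* and *Ppargc1a*, regulators of fatty acid oxidation and mitochondrial biogenesis, had the smallest p-values, with log2 fold changes of 0.22 (adjusted p = 0.308) and 0.08 (adjusted p = 0.668). *Prdm16* and *Ucp1*, defining genes of brown and beige adipocytes, had at most 0.111 and 0.054 CPM in any library.

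*Zfp423* (chr8:87661810-87959595, minus strand) had AdLacZ libraries that lay close together. They held 37.7, 37.1 and 37.5 CPM, and the Ad*Lmo3* libraries 42.1, 35.6 and 41.6 CPM. Ad*Lmo3* replicate 2 was the lowest of all 6, so that the groups overlapped. The log2 fold change of 0.09 had a 95% interval from -0.09 to 0.27 (adjusted p = 0.592).

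*Zfp521* (chr18:13687013-13972787, minus strand), which opposes commitment, had nearly the same profile in both groups. It stood at 24.2, 22.2 and 17.1 CPM in AdLacZ replicates 1, 2 and 3 and at 24.2, 22.3 and 17.6 CPM in Ad*Lmo3* replicates 1, 2 and 3. The library labelled replicate 3 was the lowest in each group. Its log2 fold change was 0.02, with a 95% interval from -0.34 to 0.37 (adjusted p = 0.972). The ratio of *Zfp423* to *Zfp521* counts, the promoting against the restraining zinc finger, was 1.56, 1.67 and 2.20 in AdLacZ and 1.73, 1.599 and 2.36 in Ad*Lmo3* (exact permutation p = 0.6, adjusted over 4 ratios 0.8).

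ZFP423 sensitizes cells to BMP ligands, whose receptors signal through SMAD proteins to ID genes, and Wisp2 holds ZFP423 in the cytoplasm. Of the 19 symbols listed for this pathway 14 were tested and 0 passed in edgeR (3 at an unadjusted p under 0.05, background 20.6%) or limma voom. DESeq2, with 1104 calls over all genes, called 2 of them, *Wisp2* (adjusted p = 0.0111) and *Id1* (0.00676). The median log2 fold change in edgeR was 0.15 against 0.00 for all tested genes. *Wisp2* was at 29.0, 22.0 and 25.8 CPM in AdLacZ and 30.3, 37.7 and 37.6 CPM in Ad*Lmo3* (log2 fold change 0.46, adjusted p = 0.082). *Id1*, a target of BMP signals, was at 17.7, 16.0 and 17.7 CPM against 19.2, 27.1 and 30.8 CPM (log2 fold change 0.58, adjusted p = 0.087). For both genes the lowest Ad*Lmo3* library was above the highest AdLacZ library (groups were apart for 26.5% of all tested genes). In edgeR both passed without Ad*Lmo3* replicate 1, the lowest library of that group for each gene (adjusted p = 0.041 for *Wisp2* and 0.0078 for *Id1*). Neither passed when any other library was left out, with adjusted p up to 0.239 for *Wisp2* and 0.241 for *Id1*. The ligand genes *Bmp2* and *Bmp7* had 0 counts in all libraries, and *Bmp4* had between 1 and 14.

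*Gata2* (chr6:88193891-88207032, plus strand) was the least abundant member. It had 59, 39 and 20 counts in AdLacZ replicates 1, 2 and 3, or 1.66, 0.998 and 0.590 CPM, and 65, 30 and 16 counts in Ad*Lmo3*, or 1.75, 0.815 and 0.592 CPM. As for *Zfp521*, replicate 1 was the highest and replicate 3 the lowest library of each group. Its log2 fold change was -0.01 (adjusted p = 0.991), but the 95% interval ran from -1.12 to 1.09, wide enough to hold both a halving and a doubling.

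*Gata3* (chr2:9857078-9890034, minus strand) was at 6.04, 5.61 and 4.63 CPM in AdLacZ and 5.24, 5.40 and 6.40 CPM in Ad*Lmo3*. Its highest and lowest libraries were replicate 3 of Ad*Lmo3* and replicate 3 of AdLacZ, opposite ends of overlapping groups. A log2 fold change of 0.06 had a 95% interval from -0.28 to 0.41 (adjusted p = 0.867). Other annotated genes overlap 5.83% of its exonic bases. The ratio of *Gata2* to *Gata3* counts was 0.274, 0.178 and 0.127 in AdLacZ and 0.335, 0.151 and 0.0925 in Ad*Lmo3* (exact permutation p = 0.9, also after adjustment over the 4 ratios).

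GATA factors act in complexes with the cofactors FOG and LDB1 and with LIM-only proteins. Of 15 genes listed for the family and these complexes 7 were tested and 0 passed in edgeR, DESeq2 or limma voom, also 0 at an unadjusted p under 0.05 in edgeR, with a median log2 fold change of 0.00. *Ldb1*, the LIM domain binding protein, was at 139, 127 and 130 CPM in AdLacZ and 121, 124 and 112 CPM in Ad*Lmo3* (log2 fold change -0.15, adjusted p = 0.270). *Gata6* had a log2 fold change of 0.16 (adjusted p = 0.514), *Gata1*, *Gata5* and *Tal1* were at 0 counts, and *Gata4* had 1 to 4 counts.

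*Nr2f2* (chr7:70351944-70366735, minus strand) had the narrowest interval but for that of *Stat5b*. Its level was 37.2, 39.2 and 36.6 CPM in AdLacZ and 39.3, 34.7 and 36.4 CPM in Ad*Lmo3*. Both the highest and the lowest library were Ad*Lmo3* libraries. With a log2 fold change of -0.03, the 95% interval ran from -0.19 to 0.13 (adjusted p = 0.839). *B130024G19Rik*, on the opposite strand, overlaps 7.46% of its exonic bases.

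In the hedgehog pathway, ligands relieve the inhibition of SMO, which frees GLI factors. Of 13 genes listed for the COUP-TF family and this pathway 12 were tested, with a median log2 fold change of 0.09. Of these, 0 passed in edgeR (2 at an unadjusted p under 0.05, background 20.6%) or limma voom and 1 in DESeq2. *Sufu*, which restrains GLI proteins, had a log2 fold change of 0.14 (adjusted p = 0.226).

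*Stat5a* (chr11:100859351-100885169, plus strand) was at 90.6, 87.3 and 96.2 CPM in AdLacZ replicates 1, 2 and 3 and at 88.4, 102 and 114 CPM in Ad*Lmo3* replicates 1, 2 and 3. The upper pair of Ad*Lmo3* libraries lay above the control range, whereas replicate 1 lay inside it. The means of 91.4 ± 4.51 and 102 ± 12.8 CPM (SD, n = 3 each) differed by a log2 fold change of 0.15, with a 95% interval from -0.07 to 0.37 (adjusted p = 0.423).

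*Stat5b* (chr11:100780731-100850724, minus strand) is the neighbour of *Stat5a* on the chromosome. It was at 72.6, 75.9 and 75.0 CPM in AdLacZ and 74.3, 82.2 and 76.5 CPM in Ad*Lmo3*. A log2 fold change of 0.06 had the tightest interval of the 9 members, from -0.08 to 0.20 (adjusted p = 0.647). The ratio of *Stat5a* to *Stat5b* counts was 1.25, 1.15 and 1.28 in AdLacZ and 1.19, 1.25 and 1.49 in Ad*Lmo3* (exact permutation p = 0.6, adjusted over 4 ratios 0.8). How reads from the identical run were assigned is not given in the sources used here, and the ratio would include any uneven split of them.

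Of the other STAT genes 4 of 5 were tested and 0 passed in edgeR, DESeq2 or limma voom, also 0 at an unadjusted p under 0.05 in edgeR, with a median log2 fold change of 0.07. *Stat3* had a log2 fold change of 0.12 (adjusted p = 0.525).

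**Figure D2:**
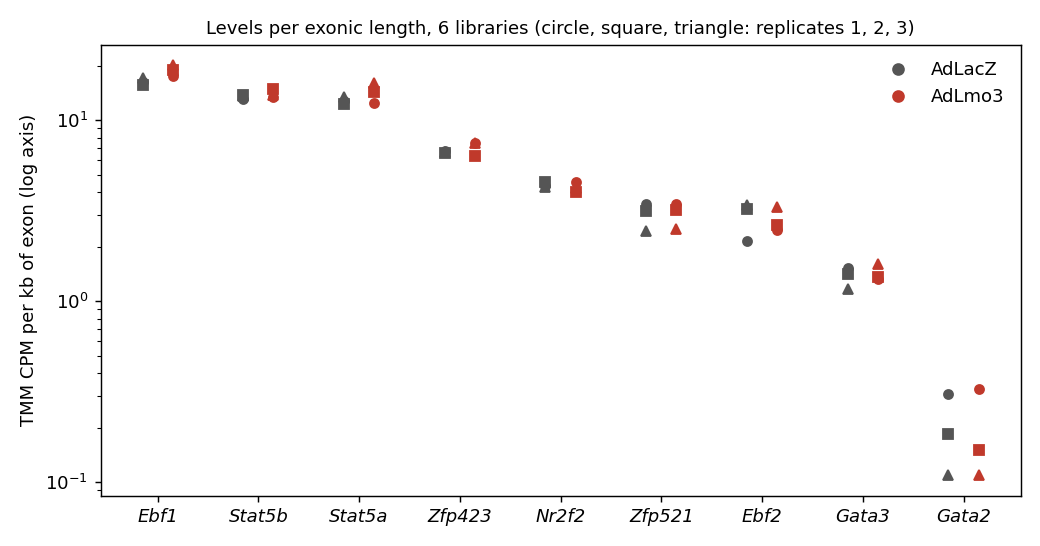
Level of each commitment factor per exonic length (TMM CPM per kb of exon, log axis) in the 6 libraries, ordered by the mean. *Ebf1* is at the top with a mean of 17.6 and *Gata2* at the bottom with a mean of 0.198.

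To set levels of different genes side by side, they were divided by the length of all annotated exons, which can differ from that of the expressed transcripts. On this scale *Ebf1* was the most abundant of the 9 factors, with a mean over the 6 libraries of 17.6 CPM per kb. *Stat5b* (13.7) and *Stat5a* (13.5) followed and overlapped each other, with *Stat5b* above *Stat5a* in 5 of 6 libraries. In counts *Stat5a* was above *Stat5b* in all 6 libraries (ratio 1.15 to 1.49), so that the order of this pair depends on the divisor. *Zfp423* had 6.88 and *Nr2f2* 4.32 CPM per kb, each below the gene before it and above the gene after it in all 6 libraries. *Zfp521* (3.03) and *Ebf2* (2.87) overlapped and changed places in 3 of 6 libraries. *Gata3*, at 1.40, and *Gata2*, at 0.198 CPM per kb, closed the order, without overlap between them.

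Upstream of STAT5, the receptor genes *Ghr* and *Prlr* rose in Ad*Lmo3* while the *Stat5* genes did not pass. RNA levels do not show whether the STAT5 proteins were activated. The adipocyte markers described below had a median log2 fold change of 0.58, and their part in the receptor levels was not tested. *Ghr*, the growth hormone receptor, was at 655, 536 and 656 CPM in AdLacZ and at 806, 861 and 1009 CPM in Ad*Lmo3*. Its log2 fold change was 0.53 ± 0.114 (SE), with a 95% interval from 0.27 to 0.80 (adjusted p = 0.042). *Prlr*, the prolactin receptor, was at 90.3, 84.0 and 113 CPM in AdLacZ and at 132, 139 and 157 CPM in Ad*Lmo3*, with a log2 fold change of 0.58 ± 0.119 (SE; 95% interval 0.30 to 0.85, adjusted p = 0.037). For both receptors the groups did not overlap (background 26.5% of all tested genes). These were the 2 of 10 receptor, kinase and phosphatase genes of the pathway that rose (background 2.71% of tested genes), 0 fell, and the median log2 fold change of the list was 0.08. A further receptor gene, *Epor*, and the kinase genes *Jak2* and *Jak1* did not pass, and are named after their values were seen. Their log2 fold changes were 0.19 (adjusted p = 0.607), -0.12 (adjusted p = 0.549) and -0.23 (adjusted p = 0.131).

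Neither receptor call held in all 6 fits that each left out 1 library. In these fits the calls over all genes also fell, from 547 to between 77 and 501. *Ghr* no longer passed without AdLacZ replicate 1 (adjusted p = 0.0745), 2 (0.0902) or 3 (0.123), nor without Ad*Lmo3* replicate 2 (0.121) or 3 (0.0905). *Prlr* no longer passed without AdLacZ replicate 1 (adjusted p = 0.104) or 2 (0.0895), nor without Ad*Lmo3* replicate 2 (0.116) or 3 (0.0819). Over the 6 fits that each left out 1 library, the log2 fold change was between 0.44 and 0.61 for *Ghr* and between 0.49 and 0.71 for *Prlr*.

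Among genes known as STAT5 targets, 2 of 12 rose (background 2.71%) and 0 fell in edgeR, 6 had an unadjusted p under 0.05 (background 20.6%), and the median log2 fold change was 0.18. *Igfals*, which encodes the acid labile subunit that carries IGF1 in ternary complexes, was at 4.08, 3.58 and 3.10 CPM in AdLacZ and at 7.69, 8.80 and 8.77 CPM in Ad*Lmo3*. Its log2 fold change was 1.23 ± 0.143 (SE; 95% interval 0.90 to 1.56, adjusted p = 0.005), and it passed whichever of the 6 libraries was left out (adjusted p 0.0068 to 0.0346). *Igf1*, the growth factor itself, was at 96.0, 76.9 and 76.3 CPM in AdLacZ and 129, 114 and 119 CPM in Ad*Lmo3* (log2 fold change 0.54 ± 0.101 SE, adjusted p = 0.027). The groups of *Igf1* were also apart (background 26.5%). It no longer passed without AdLacZ replicate 2 (adjusted p = 0.0794) or 3 (0.127), nor without Ad*Lmo3* replicate 1 (0.0507), 2 (0.0830) or 3 (0.0529).

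*Cish* and *Socs2*, feedback inhibitors that STAT5 induces, and the repressor gene *Bcl6* did not pass in edgeR, and are named here after their values were seen. *Cish* was at 10.2, 14.5 and 14.4 CPM in AdLacZ and 19.95, 20.04 and 16.0 CPM in Ad*Lmo3*, groups that did not overlap (background 26.5%). Its log2 fold change was 0.52 (95% interval 0.17 to 0.88, adjusted p = 0.105), and DESeq2 called it (adjusted p = 0.0208). *Socs2* was lower in each Ad*Lmo3* library, at 11.1, 10.9 and 9.74 CPM against 12.7, 13.2 and 11.9 CPM (log2 fold change -0.25, adjusted p = 0.194). *Bcl6* had a log2 fold change of 0.23 (adjusted p = 0.162). *Socs1* and *Socs3*, on the same list, had log2 fold changes of 0.07 (adjusted p = 0.922) and 0.06 (adjusted p = 0.765). The remaining genes of the list did not pass in edgeR either. *Pdk4* and *Pim1* had log2 fold changes of -0.09 (adjusted p = 0.666) and -0.40 (adjusted p = 0.581). Those of *Aox1*, *Ccnd1* and *Bcl2l1* were 0.30 (adjusted p = 0.440), 0.42 (adjusted p = 0.232) and 0.14 (adjusted p = 0.250). Of the exonic bases of *Cish*, 11.5% overlap genes on the opposite strand.

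**Figure D3:**
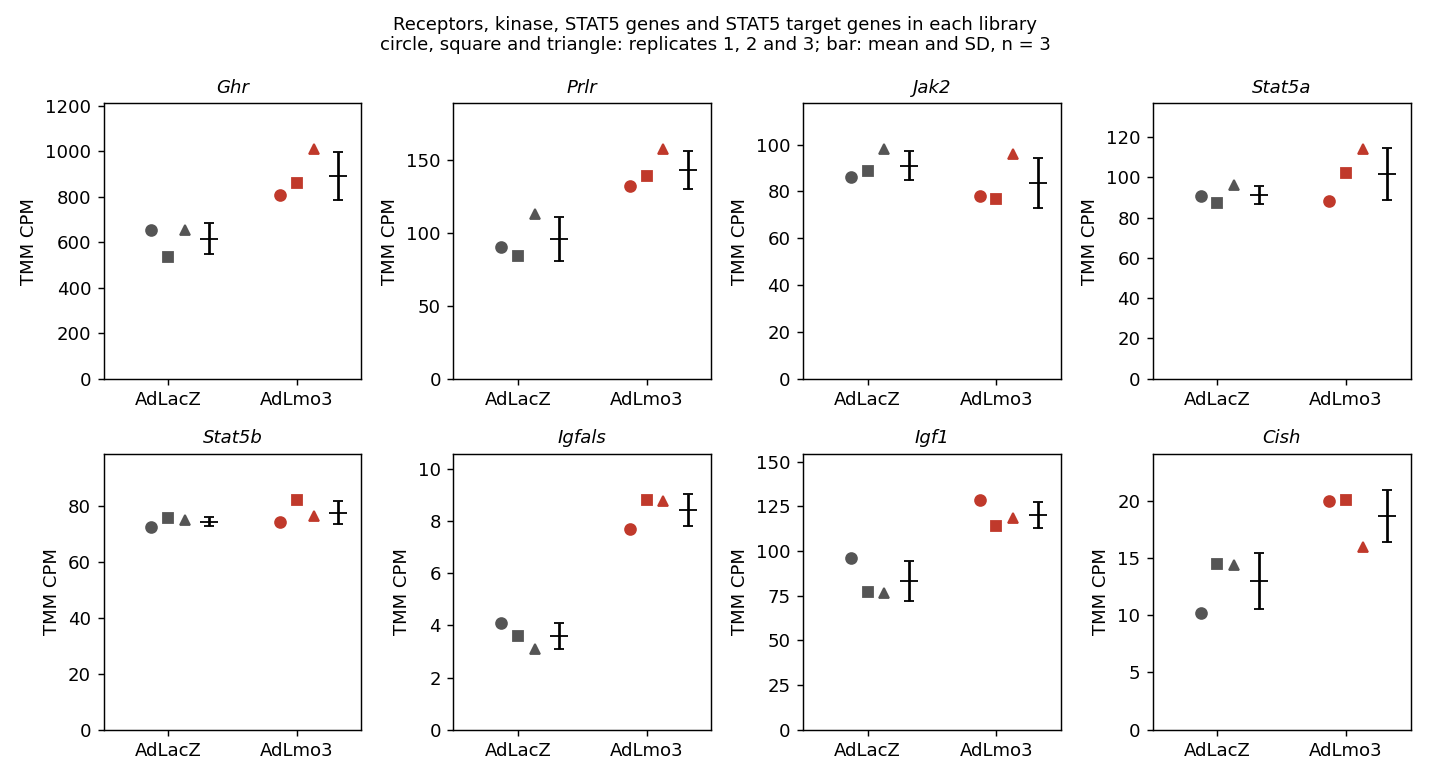
TMM-normalized CPM of receptor (*Ghr*, *Prlr*), kinase (*Jak2*), *Stat5a*, *Stat5b* and STAT5 target genes (*Igfals*, *Igf1*, *Cish*) in each library on linear axes from 0, with the mean and SD of each group of 3. Groups are apart for *Ghr*, *Prlr*, *Igfals*, *Igf1* and *Cish* and overlap for *Jak2*, *Stat5a* and *Stat5b*.

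The promoters of *Igfals* and *Cish* are shown because they hold the motif TTCNNNGAA next to the start site, in capitals (RefSeq, GRCm38.p6, plus strand). The stretches are chr17:24878081-24878230 and chr9:107296559-107296678.
*Igfals*: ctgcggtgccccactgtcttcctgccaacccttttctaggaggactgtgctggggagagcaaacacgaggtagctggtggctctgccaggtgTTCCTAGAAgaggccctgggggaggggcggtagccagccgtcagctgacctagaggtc
*Cish*: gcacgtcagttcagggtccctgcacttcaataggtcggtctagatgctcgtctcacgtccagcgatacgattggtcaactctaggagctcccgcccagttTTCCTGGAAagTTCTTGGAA
RefSeq lists 3 start sites for *Igfals*. The match shown began at position -58 from 1 of them, another had a match at position -236, and the last had none in its window. The pair in *Cish* began at positions 1 and 12, counted from 1 at the start site. Of the 3 *Prlr* windows 1 held a match, at position -110, and the windows of *Ghr* and *Igf1* held none. Of 32851 promoters of 300 bases, 8.30% held TTCNNNGAA on either strand. This share is per window, and the share of genes with 3 windows that hold a match was not computed. The window of none of *Ebf1*, *Zfp423*, *Gata2*, *Gata3*, *Nr2f2*, *Stat5a* and *Stat5b* held TTCNNNGAA, the EBF motif of TCCC, any 2 bases and GGGA (0.904% of promoters) or the GATA motifs AGATAA (11.2%) and TGATAA (9.05%), searched on both strands. A match is only a description of the letters in the window, and its absence says nothing about binding elsewhere.

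Downstream of the commitment factors, the master regulators of adipogenesis rose. *Pparg* was at 377, 367 and 422 CPM in AdLacZ and 493, 534 and 604 CPM in Ad*Lmo3* (log2 fold change 0.48 ± 0.096 SE, adjusted p = 0.032). *Cebpa* was at 232, 207 and 230 CPM against 308, 360 and 337 CPM (log2 fold change 0.59 ± 0.084 SE, adjusted p = 0.011). Groups were apart for both genes (background 26.5% of all tested genes). They were the 2 of 5 on their list that passed (background 2.71% higher). The other 3 were *Cebpb*, *Cebpd* and *Dlk1*. *Pparg* did not pass without AdLacZ replicate 1 (adjusted p = 0.0917), 2 (0.0880) or 3 (0.0801) or Ad*Lmo3* replicate 2 (0.108) or 3 (0.0710), and *Cebpa* did not pass without AdLacZ replicate 3 (0.0601). *Dlk1*, which marks preadipocytes, was at 1342, 1261 and 873 CPM in AdLacZ and 1422, 1217 and 850 CPM in Ad*Lmo3* (log2 fold change 0.01, adjusted p = 0.993).

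Of 15 other factors that promote adipogenesis 0 passed in edgeR (2 at an unadjusted p under 0.05, background 20.6%) or limma voom. DESeq2 called 1, *Nfia* (adjusted p = 0.0148), and the median log2 fold change of the list in edgeR was 0.01. *Nfia* and *Tle3*, a transcription factor and a cofactor that act with PPARγ, had log2 fold changes in edgeR of 0.34 (adjusted p = 0.086) and 0.44 (adjusted p = 0.171). Of 18 other factors that restrain it 16 were tested, 1 rose and 1 fell (background 2.71% higher and 1.57% lower), with a median of -0.00. *Irf4*, an inhibitor of adipogenesis that also promotes lipolysis, was at 0.450, 0.768 and 0.678 CPM in AdLacZ and 1.38, 1.47 and 1.70 CPM in Ad*Lmo3* (log2 fold change 1.25, adjusted p = 0.041). *Ddit3*, which encodes the stress factor CHOP, was at 226, 297 and 265 CPM in AdLacZ and 180, 156 and 105 CPM in Ad*Lmo3* (log2 fold change -0.84, adjusted p = 0.047). *Irf4* did not pass whichever of the 6 libraries was left out, with adjusted p = 0.0998, 0.0655 and 0.140 without AdLacZ replicates 1, 2 and 3 and 0.0625, 0.132 and 0.104 without Ad*Lmo3* replicates 1, 2 and 3. *Ddit3* did not pass without AdLacZ replicate 1 (0.0629), 2 (0.117) or 3 (0.166) or Ad*Lmo3* replicate 2 (0.144).

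**Figure D4:**
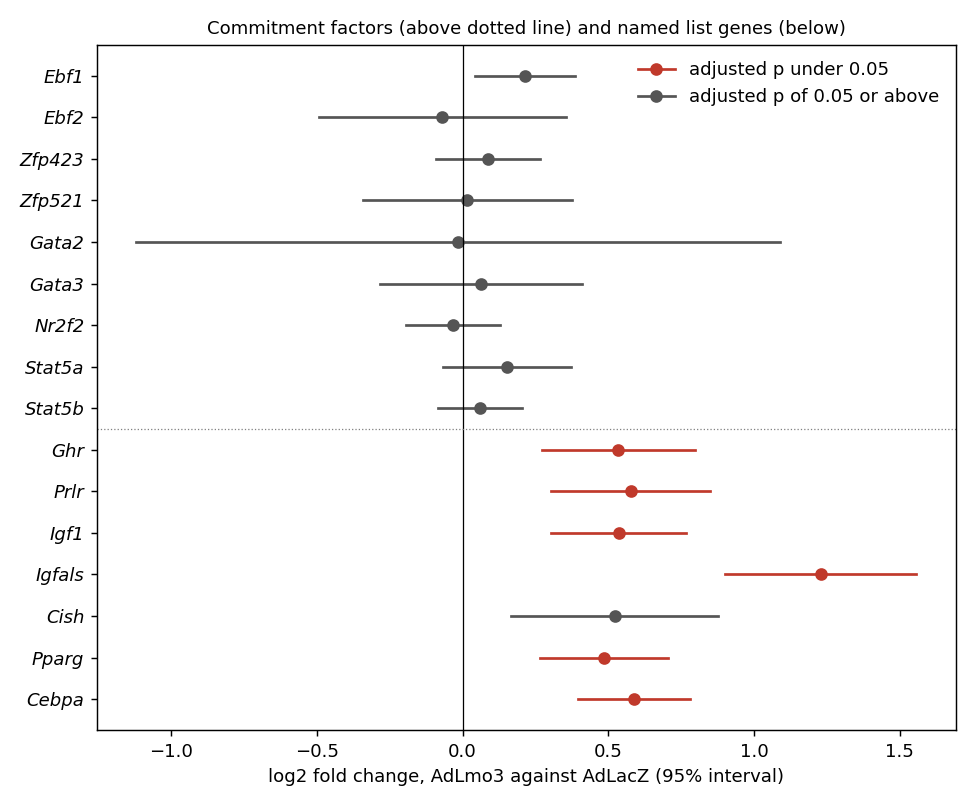
Log2 fold change in Ad*Lmo3* against AdLacZ with its 95% interval from the edgeR fit for the 9 commitment factors and for 7 genes upstream or downstream of them. The 9 factors lie between -0.07 and 0.21, whereas *Ghr*, *Prlr*, *Igf1*, *Igfals*, *Pparg* and *Cebpa* passed at 0.48 to 1.23.

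The order of the libraries for some members was set beside that of summed markers of the differentiation state. The summed level of the 13 preadipocyte or fibroblast markers was 32883, 32398 and 26593 CPM in AdLacZ replicates 1, 2 and 3 and 37759, 33964 and 25072 CPM in Ad*Lmo3* replicates 1, 2 and 3. Replicate 3 thus held the lowest sum in each group, as it held the lowest *Zfp521* and *Gata2* levels. It also held the lowest level of *Dlk1*, which is itself one of the 13 markers. No other member was lowest in replicate 3 of both groups, and the share of all tested genes that were was not computed. Most of the sum came from *Col1a1*, *Col1a2* and *Col3a1* (5221, 9098 and 12862 CPM in AdLacZ replicate 1). Not every marker followed it: *Acta2* and *Fn1* were lowest in AdLacZ replicate 1, and *Ly6a* was highest in Ad*Lmo3* replicate 3. None of the 13 marker genes passed in edgeR, DESeq2 or limma voom (0 at an unadjusted p under 0.05), with a median log2 fold change of 0.08. In bulk RNA, fewer cells of a type and less RNA per cell cannot be told apart.

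All 12 adipocyte markers had log2 fold changes above 0. Their summed level was 22916, 21373 and 23475 CPM in AdLacZ and 29154, 33250 and 34852 CPM in Ad*Lmo3*. Of the 12, 8 rose and 0 fell (background 2.71% higher and 1.57% lower), and the median log2 fold change was 0.58. *Retn*, *Cidec*, *Adipoq* and *Cfd*, which encode resistin, a lipid droplet protein, adiponectin and adipsin, had log2 fold changes of 1.44, 0.69, 1.05 and 0.81, and without AdLacZ replicate 3 the adjusted p of *Adipoq* was 0.0554 and that of *Cfd* 0.0601. *Ebf1* and *Stat5a* ordered the libraries of each group as the adipocyte marker sum did, with replicate 2 lowest and replicate 3 highest in AdLacZ and replicate 1 lowest and replicate 3 highest in Ad*Lmo3*. The other members did not have this order in both groups, and the share of all tested genes with it was not computed. *Lpl*, which did not pass, held the largest part of the sum (9823 CPM in AdLacZ replicate 1). The groups were apart for the marker sum and for *Ebf1* and overlapped for *Stat5a*. The part of these markers in the levels of the commitment factors was not tested. Nor was it tested for *Ghr*, *Prlr*, *Igfals*, *Igf1*, *Cish*, *Pparg* and *Cebpa*. Macrophage markers summed to 2.11 to 4.61 CPM and endothelial markers to 0.926 to 2.38 CPM, and *Cd68*, *Csf1r*, *Pecam1* and *Tek* had adjusted p-values of 0.246, 0.442, 0.172 and 0.369.

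**Figure D5:**
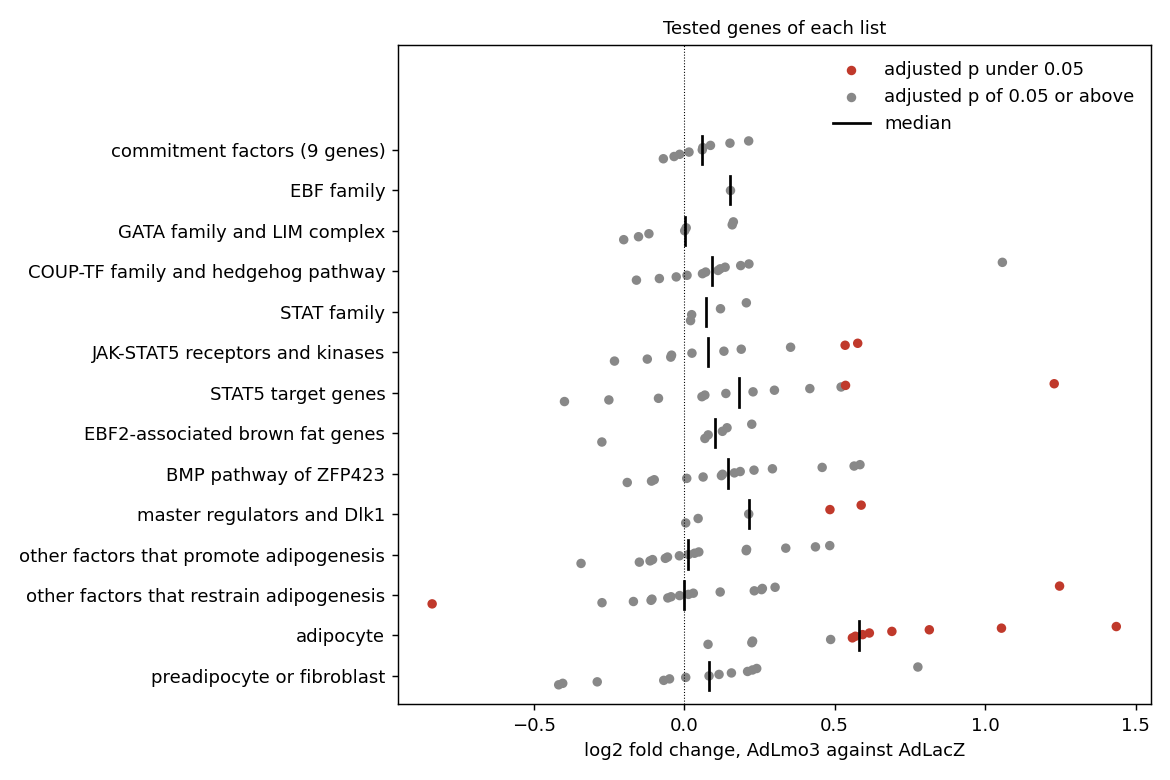
Log2 fold change of every tested gene of the 9 commitment factors, of the pathway lists and of the adipocyte and preadipocyte marker lists, with the median of each list as a bar. The factors sit close to 0 with a median of 0.06. The adipocyte markers have a median of 0.58, with 8 of 12 genes past the threshold (4.28% of all tested genes).

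Since no member passed, profiles were compared for the members with the smallest p-values, *Ebf1* and *Stat5a*. The profile of a gene was its log2 CPM in the 6 libraries, centred on its own AdLacZ mean, and likeness was the root mean square difference. Closest to *Ebf1* were *Ept1* (0.0273), *Armcx1* (0.0332) and *Slc35e3* (0.0345). *Ept1*, an enzyme of phosphatidylethanolamine synthesis, had 93.2, 88.6 and 100.2 CPM in AdLacZ and 103, 108 and 113 CPM in Ad*Lmo3*. Closest to *Stat5a* were *Wdtc1* (0.0213), *G6pdx* (0.0248) and *Athl1* (0.0303). *G6pdx*, the entry enzyme of the pentose phosphate pathway, had 175, 160 and 183 CPM in AdLacZ and 167, 192 and 211 CPM in Ad*Lmo3*. Its low replicate 1 and high replicate 3 in Ad*Lmo3* are those of the *Stat5a* profile by which it was chosen, not a separate result.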

How the data were processed

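RNA-Seq was performed on 3 AdLacZ and 3 Ad*Lmo3* libraries, prepared with the NEBNext Ultra II RNA kit and sequenced as single reads of 75 bp. The authors deposited raw counts of reads per gene symbol, 1 table per library and without normalization. The submitters' processing notes name bcl2fastq, STAR 2.5.0b, DESeq2 1.6.3 and mm10. The counting program, strand setting and annotation are not given in the sources used here, so that reads of overlapping or near-identical genes could be split or lost. Reads assigned to no gene (7.15% to 8.94%) or to several (0.476% to 0.543%) were left out.

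Groups came from the labels. Testing used edgeR 4.0.16 under R 4.3.3 (low genes removed with filterByExpr, TMM scaling, quasi-likelihood test, no replicate block, Benjamini-Hochberg adjustment over 12766 genes, threshold 0.05), after the procedure was tested on simulated data. CPM are TMM-normalized, SD is between libraries, and lengths and positions come from GENCODE vM21 on GRCm38. Every replicate pair differed by more than sampling noise (chi-square per degree of freedom 22.9 to 61.6). Ratios of paralogs within a library were compared by exact two-sided permutation tests. Alternatives were DESeq2 1.42.0, limma 3.58.1 (voom), other scaling and count filters, the replicate block and leaving out each library. Promoters are from the RefSeq table (GRCm38.p6), which held 7 of the 9 members (no entry for *Ebf2* and *Zfp521*), and figures were drawn with matplotlib 3.10.9.

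The 9 members, 11 gene lists and 7 marker lists were chosen with earlier results of these data known. Named genes were the members, the genes of a list that passed (at most the 4 of smallest adjusted p) or else the 2 of smallest p, and the 3 genes closest in profile to each of the 2 members of smallest p. Some genes that this rule names are not reported here. No columns were attributed to samples other than these 6.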

Additional observations from a re-analysis of the deposited data

How the results depend on the processing

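The number of commitment factors called was 0 under every scaling, filter and tool tried, with the replicate block and without each library in turn. Outside the leave-one-out fits all 63 values of the 9 members kept their direction and stayed above the threshold (smallest adjusted p 0.0956, *Ebf1* in DESeq2). Leaving out 1 library, 42 of 54 values kept their direction and 12 reversed: the log2 fold change ranged from -0.25 to 0.052 for *Ebf2*, -0.12 to 0.14 for *Zfp521*, -0.60 to 0.42 for *Gata2*, -0.038 to 0.14 for *Gata3* and -0.078 to 0.0078 for *Nr2f2*, and from 0.17 to 0.27 for *Ebf1*, 0.05 to 0.16 for *Zfp423*, 0.06 to 0.25 for *Stat5a* and 0.02 to 0.10 for *Stat5b*. The difference in log2 ratio ranged from 0.14 to 0.47 for *Ebf1* to *Ebf2* (exact permutation p = 0.1 without AdLacZ replicate 1), -0.10 to 0.22 for *Zfp423* to *Zfp521*, -0.64 to 0.29 for *Gata2* to *Gata3* and -0.0098 to 0.15 for *Stat5a* to *Stat5b*, and the log2 fold change from -0.16 to 0.19 for *Dlk1*. The estimate for *Dlk1* was also below 0 with limma voom (-0.0080) and with the replicate block (-0.0024), and the cause of these reversals was not tested. Over all genes, 547 calls became 1104 with DESeq2, 542 to 659 with other scaling, filters or voom, and 77 (without AdLacZ replicate 3) to 501 (without Ad*Lmo3* replicate 1) with fewer libraries. The groups share replicate numbers, and libraries of equal number departed from the mean of their group with correlations over genes of 0.0508, 0.225 and 0.234, not all above 0.1, so that the numbers were not taken to pair the samples. Not every library correlated best with its own number. With the replicate block 498 genes and 0 members were called (*Ebf1* 0.21, adjusted p = 0.143; *Gata2* -0.06, adjusted p = 0.916), *Irf4* and *Ddit3* had adjusted p = 0.0561 and 0.0532, and *Nfia* passed (0.0408). DESeq2 also called *Nfia* (0.0148), *Wisp2* (0.0111), *Id1* (0.00676) and *Cish* (0.0208). The widest interval among the members, that of *Gata2*, ran from 0.460-fold to 2.13-fold.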
